A study of Mus musculus with 63 samples.

Results

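miR-204 is a kidney miRNA whose 2 mature arms, miR-204-5p (mmu-miR-204-5p in the table) and miR-204-3p (mmu-miR-204-3p), were counted in 63 small RNA libraries from 4 sorted kidney cell populations. Both arms were taken by name from a table of 2110 miRNA loci, and they were chosen by their measured changes in these same libraries, which ran in opposite directions in different cell types after ureteric obstruction. The changes with obstruction are therefore described below with no test. The sorted populations, from kidneys of male C57BL/6 mice aged 8 to 12 weeks, were endothelial cells (ECs), gated as CD45-CD31+, and macrophages (Macs), gated as CD45+F4/80hi. The others were CD45-CD31- cells that bound the lectin LTL, which marks the brush border of proximal tubules (PT cells), or that carried the stromal receptor PDGFR-β (PDGFR-β+ cells). The groups were sham-operated mice, mice with unilateral ureteric obstruction for 2 days (UUO-2) or 7 days (UUO-7), and mice whose ureter was reimplanted after 7 days of obstruction and which were examined 2 weeks later (R-UUO). Of 5 operated mice per group, the 4 nearest to the mean expression of the injury gene Havcr1 were sequenced. PDGFR-β+ cells at UUO-7 had 3 libraries, since the authors removed 1 as an outlier, and every other group had 4.

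A miRNA is a short RNA that guides the Argonaute protein to complementary messenger RNAs and lowers their translation and stability. Most of its specificity lies in the seed, bases 2 to 8 counted from the 5′ end. The Mir204 hairpin lies in an intron of Trpm3, the gene of a cation channel, and miR-204 is best known from epithelia of the eye and kidney, where it helps to maintain epithelial character. Its closest relative, miR-211, comes from an intron of Trpm1 and is best known from pigment cells.

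The sequences below, from RefSeq on GRCm38.p6, show how near the relatives are, with the seed of each mature miRNA in capitals and, in the hairpin, both mature arms in capitals.
miR-204-5p: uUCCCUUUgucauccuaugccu
miR-211-5p: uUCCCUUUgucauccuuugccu
miR-204-3p: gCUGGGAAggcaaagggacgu
Mir204 hairpin: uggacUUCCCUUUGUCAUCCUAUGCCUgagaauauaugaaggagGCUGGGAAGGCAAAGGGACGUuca
The hairpin covers chr19:22750605-22750672 on the plus strand of GRCm38, with miR-204-5p at chr19:22750610-22750631 and miR-204-3p at chr19:22750649-22750669. It lies within 18 annotated transcripts of Trpm3 (chr19:22139046-22995410, plus strand) and overlaps no exon of that gene. miR-204-5p and miR-211-5p are identical at 21 of 22 bases and share the seed UCCCUUU, and they differ only by A17U, counted from the 5′ end of miR-204-5p. Of 1679 mature mouse miRNAs in the reference table, the other holders of this seed were miR-211-5p and miR-7670-3p. How reads matching near-identical sequences were placed is not given in the sources used here.

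Libraries held between 616565 and 10819385 counts, with the lowest median in PT cells, and the values below are counts scaled to a common library total (CPM) after edgeR's trimmed mean of M values (TMM) scaling, within a cell type unless stated. Marker miRNAs of each cell type were summed to describe the sorts. The lists were chosen with earlier results of these data known, so the sums are no independent check of purity. In all 16 EC libraries the sum of the endothelial miR-126a arms lay above every library of other cell types. The same held for the sums of miR-142a and miR-223 in 16 Mac libraries and of 7 tubular loci in 16 PT libraries. It also held for the sum of 7 stromal loci such as miR-199a and miR-214 in 15 PDGFR-β+ libraries. miR-192-5p made up most of the tubular sum in sham PT cells, with a mean of 166508 CPM against 178184 CPM for the sum, by library size. Not every tubular locus was highest in PT cells. By library size miR-215-5p averaged 1.91 CPM in PT libraries, with no count in 5 of 16, and 2.82 CPM in Mac libraries. One PT library, R-UUO replicate 1, stood apart, with a tubular marker sum of 11846 CPM by library size and 71.5% of its counts in miR-10a-5p and miR-10b-5p, against 38.4% to 42.3% in the other R-UUO PT libraries. An EC library, R-UUO replicate 4, stood apart likewise, with 61.4% of its counts in these miRNAs against 33.0% to 37.7% in the other R-UUO EC libraries, and an endothelial marker sum of 43892 CPM against 86338 to 106929 CPM. The share of these miRNAs also differed between conditions. In PT cells it was 17.5% to 19.5% in sham, 26.9% to 40.3% at UUO-2 and 35.9% to 47.1% at UUO-7. From sham to UUO-7 it went from 28.8% to 33.7% to 34.2% to 40.3% in ECs, and from 7.36% to 9.38% to 10.6% to 15.3% in Macs. In PDGFR-β+ cells it was 31.9% to 34.1% in sham and 22.4% to 29.3% at UUO-7. The part of this shift in the miR-204-5p values was not tested. In libraries of many cells, less miR-204 per cell and fewer cells that hold it cannot be told apart.

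miR-204-5p carried nearly all reads of the hairpin. It had 185308 counts and was found in 63 of 63 libraries, whereas miR-204-3p had 122 counts in all, at most 23 in a library, and was found in 29 libraries. The 3p arm thus made up 0.0658% of the reads of both arms (95% Wilson interval 0.0551% to 0.0785%, which covers counting error only). miR-211-5p had 38 counts in 17 libraries, 20 of them in ECs and 15 in Macs, and miR-211-3p had none. In PT cells miR-211-5p was not detected in any of 16 libraries, in which 3 counts correspond to 0.589 to 4.87 CPM. Neither arm of miR-211 passed the filter on low counts in any cell type. miR-7670-3p, the other holder of the seed, had 277 counts over all libraries.

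Averaged over the 4 conditions, miR-204-5p was most abundant in ECs and least abundant in Macs. This average holds the changes for which the miRNA was chosen, so it is given with no test, from an edgeR fit of all 63 libraries. Set against the other 3 cell types averaged, the log2 difference was 2.35 (SE 0.12) in ECs and -3.81 (SE 0.17) in Macs. By library size alone it was nearer to 0 in both, at 1.56 in ECs and -2.82 in Macs. With TMM the difference was 0.78 (SE 0.13) in PT cells, whose sham level was the third of the 4 cell types, and by library size alone 1.04. In PDGFR-β+ cells it was 0.68 (SE 0.13), or 0.22 (SE 0.13) by library size alone. By raw count miR-204-5p ranked between 40 and 84 of the 2110 loci in EC libraries, between 45 and 125 in PT libraries, between 53 and 124 in PDGFR-β+ libraries and between 108 and 212 in Mac libraries.

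**Figure D1:**
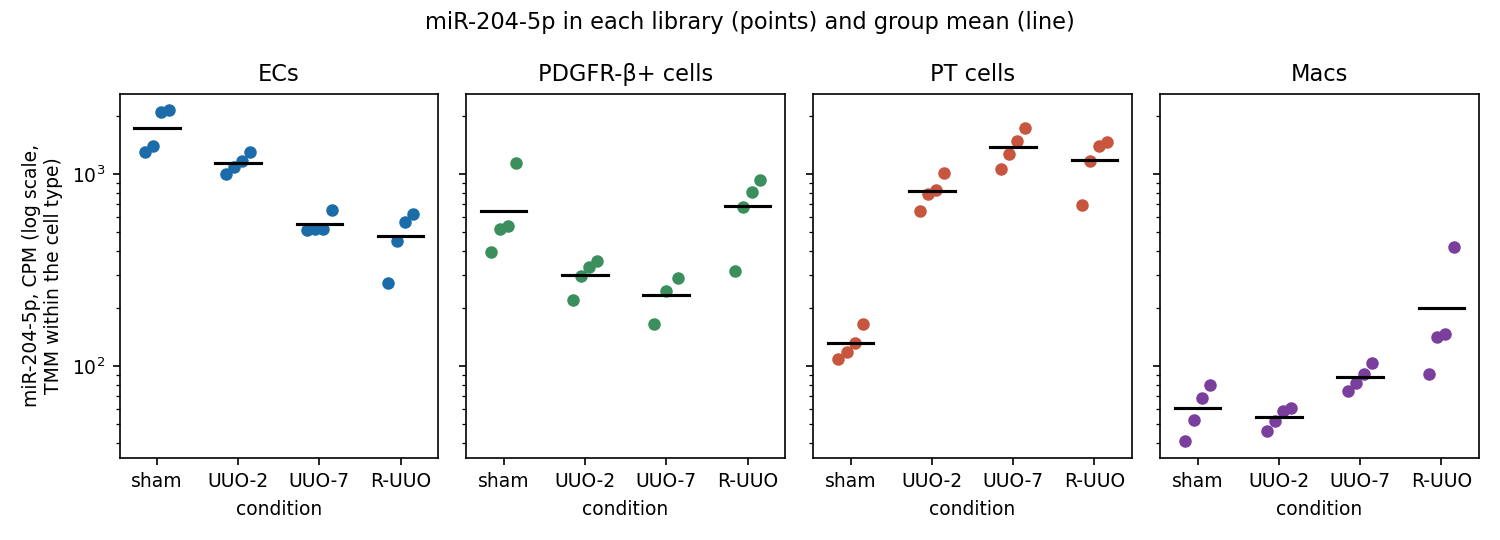
miR-204-5p in each library (points) and the group mean (line), in CPM on a log scale with TMM scaling within each cell type, by cell type and condition. EC libraries stepped down from 1298 to 2156 CPM in sham to 512 to 649.6 CPM at UUO-7, while PT libraries stepped up from 109.6 to 166 CPM to 1060.4 to 1748 CPM.

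In ECs, which line the vessels of the kidney, miR-204-5p was lower at each later condition. The 4 sham libraries had 2156, 2108, 1395 and 1298 CPM (mean 1739 ± 455 SD, n = 4). At UUO-2 they had 1087, 1004, 1301 and 1175 CPM. The highest UUO-2 library lay just above the lowest sham library, so these groups overlapped, with a log2 fold change of -0.61 (SE 0.22). At UUO-7 the libraries had 519, 521, 649.6 and 512 CPM (mean 551 ± 66.2 SD, n = 4). Every UUO-7 library lay below every sham library, a 3.16-fold lower level (log2 fold change -1.66, SE 0.22), and 7 of the 469 loci tested in ECs had a more negative log2 fold change. Groups did not overlap in the lower direction at 13.6% of the loci. Between UUO-2 and UUO-7 the level was lower by a further log2 of 1.05 (SE 0.22), again with no overlap, as at 3.62% of the loci.

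After reversal the EC level had not returned to that of sham. The R-UUO libraries had 269.8, 566, 621 and 449.6 CPM (mean 476 ± 155 SD, n = 4), all below the lowest sham library, with a log2 fold change from sham of -1.87 (SE 0.22). In this comparison 12.6% of the loci were lower without overlap. The R-UUO and UUO-7 libraries overlapped, with a log2 fold change of -0.21 (SE 0.22) between them. Without R-UUO replicate 1, the lowest library, the change from sham was -1.56, and without replicate 4, the library that stood apart, it was -1.95. Replicate 4 was the highest of its group with TMM. By library size it had 418 CPM, against 241, 577 and 432 CPM in replicates 1, 2 and 5.

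PT cells, which reabsorb most of the filtered water and solutes, showed the opposite order. The sham libraries had 166, 119, 133 and 109.6 CPM (mean 132 ± 24.7 SD, n = 4). At UUO-2 they had 645, 1014, 829 and 791 CPM, and the lowest of these was above every sham library. This was a 6.22-fold higher level (log2 fold change 2.64, SE 0.24), and groups were higher without overlap at 22.4% of the 330 loci tested in PT cells. At UUO-7 they had 1487, 1060.4, 1748 and 1276 CPM (mean 1393 ± 294 SD, n = 4). All 4 UUO-7 libraries were above all UUO-2 libraries (log2 fold change 0.76, SE 0.23), as at 13.0% of the loci, and above all sham libraries. Against sham the level was 10.6-fold higher (log2 fold change 3.40, SE 0.25), 8 of the 330 loci had a larger log2 fold change, and 28.5% of the loci were higher without overlap. By library size alone the change was 3.02.

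In R-UUO PT cells miR-204-5p stayed near its UUO-7 level. The libraries had 1466, 1174, 689 and 1395 CPM (mean 1181 ± 351 SD, n = 4), and all of them lay above sham (log2 fold change 3.16, SE 0.25), as did 19.7% of the loci without overlap. They overlapped with UUO-7 (log2 fold change -0.24, SE 0.22). Leaving out R-UUO replicate 1, the library that stood apart, gave a change from sham of 3.09. By library size this library had 626 CPM, against 1215, 686 and 1572 CPM in replicates 2, 4 and 5. It was thus the lowest of its group on that scale and the highest with TMM. The rank of miR-204-5p among all loci of a PT library was between 106 and 125 in sham and between 45 and 56 at UUO-7.

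PDGFR-β+ cells, the pericytes and fibroblasts that lay down scar matrix, showed a lower level during obstruction and a higher one after reversal. The sham libraries had 1139, 535, 391 and 516 CPM, and replicate 1 lay far above the other 3. At UUO-2 the libraries had 330.1, 353, 296 and 220.2 CPM, all below sham (log2 fold change -1.11, SE 0.35), where 3.98% of 477 loci were lower without overlap. At UUO-7 the 3 libraries had 289, 246 and 167 CPM, again all below sham (log2 fold change -1.46, SE 0.39), where 18.9% of the loci were lower without overlap. Without sham replicate 1 the changes were -0.71 at UUO-2 and -1.07 at UUO-7. The median log2 fold change of all 477 loci at UUO-7 was 0.50, and with library size alone the change of miR-204-5p was -0.96.

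The R-UUO PDGFR-β+ libraries had 313, 805, 673 and 937 CPM (mean 682 ± 269 SD, n = 4). Each lay above every UUO-7 library (log2 fold change 1.54, SE 0.39), as at 10.1% of the loci, and 8 of 477 loci had a larger log2 fold change. R-UUO and sham libraries overlapped (log2 fold change 0.08, SE 0.34), and the sign of this small difference depended on the method and the libraries used. The difference between these cell types in the change from UUO-7 to R-UUO was -1.75 (SE 0.47) on the log2 scale, ECs minus PDGFR-β+ cells.

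**Figure D2:**
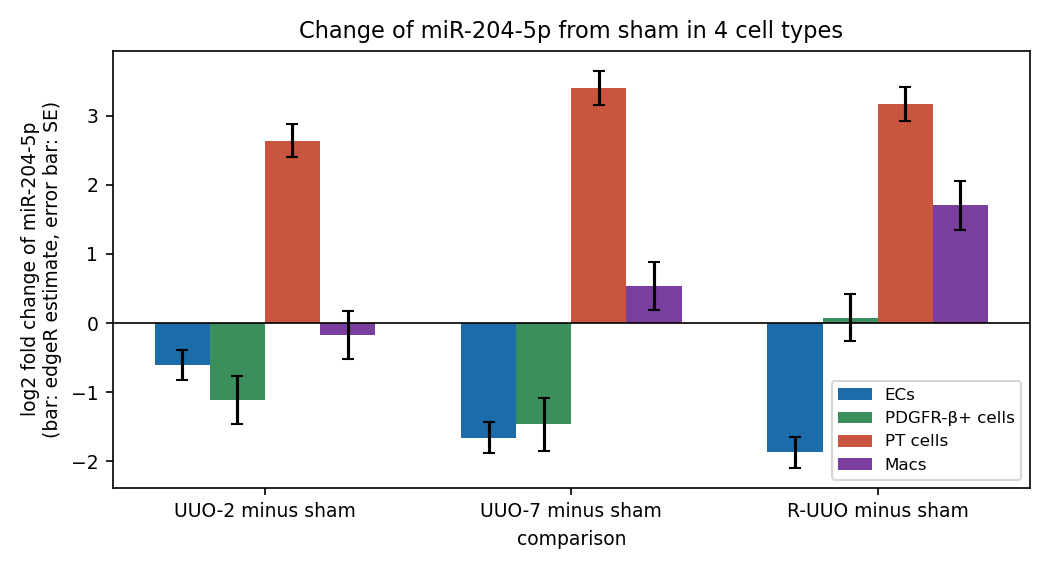
Log2 fold change of miR-204-5p from sham (bars, coloured by cell type) with its SE (error bars) from the edgeR fit within each cell type, for the 3 later conditions. At UUO-7 ECs (-1.66) and PDGFR-β+ cells (-1.46) lie below 0 and PT cells (3.40) above.

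In Macs the level was low throughout. Sham libraries had 68.8, 40.7, 52.6 and 80.1 CPM, and UUO-2 libraries had 46.1, 51.7, 60.4 and 58.7 CPM. UUO-7 libraries had 91.5, 74.1, 104 and 82.4 CPM, which overlapped with sham (log2 fold change 0.53, SE 0.35) and lay above UUO-2 (log2 fold change 0.70, SE 0.35), as at 21.0% of 457 loci. R-UUO libraries had 91.7, 142, 148 and 419.8 CPM, all above sham (log2 fold change 1.70, SE 0.35), where 18.8% of the loci were higher without overlap. The R-UUO value rested in part on replicate 5, and without it the change was 0.94.

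The contrast between ECs and PT cells was also present within single mice, where libraries of 1 condition and replicate number were taken as 1 mouse. With TMM scaling over all 63 libraries, which puts the cell types on one scale, the EC level of a sham mouse was 19.9 to 31.6 times its PT level, and by library size 9.55 to 16.0 times. ECs lay above PT cells in 4 of 4 sham mice on both scales. At UUO-2 they did so in 4 of 4 mice with TMM and in 3 of 4 by library size, with ratios of 1.55 to 2.81 with TMM. At UUO-7 the order was turned, and PT cells lay above ECs of the same mouse in 4 of 4 mice, by 1.27 to 1.87 times with TMM and by 2.09 to 2.79 times by library size. In R-UUO ECs were above PT cells in 1 of 4 mice with TMM and in 0 of 4 by library size.

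**Figure D3:**
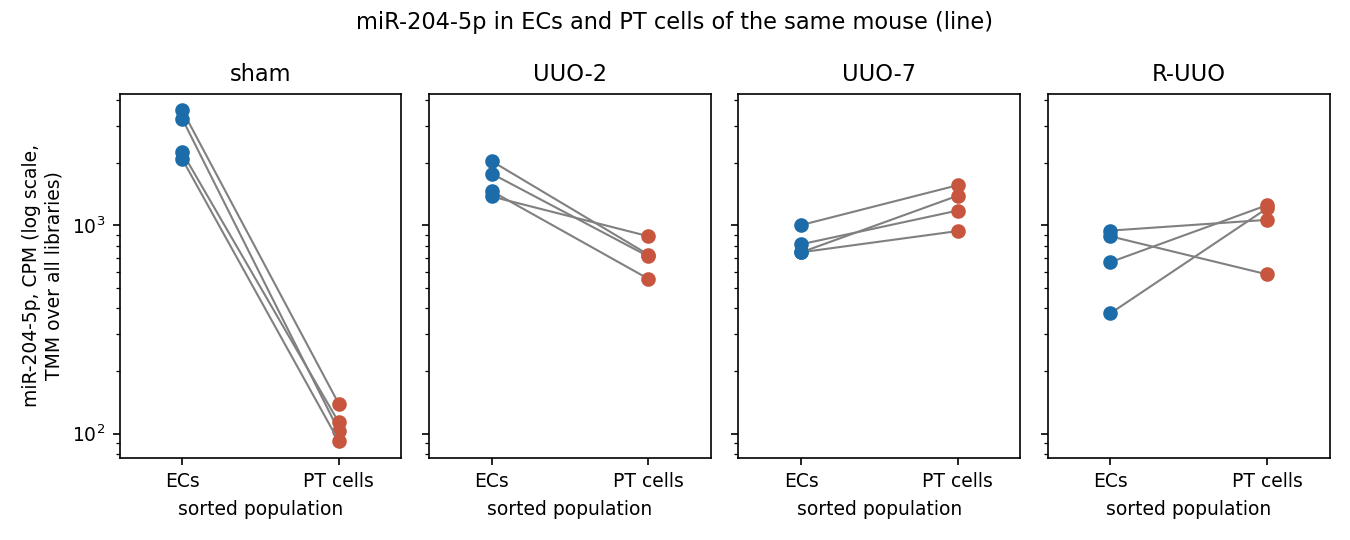
miR-204-5p in ECs and PT cells of each mouse (read from the replicate number), joined by a line, in CPM on a log scale with TMM scaling over all libraries. The lines fall steeply from ECs to PT cells in the 4 sham mice (EC level 19.9 to 31.6 times the PT level) and rise in all 4 UUO-7 mice.

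The order of the 4 cell types accordingly differed between conditions. In sham it was ECs, PDGFR-β+ cells, PT cells and Macs, with means of 2796, 835, 112 and 39.3 CPM on the common scale, and no neighbours in this order overlapped. At UUO-2 it was ECs (1664 CPM), PT cells (719.7 CPM), PDGFR-β+ cells (367 CPM) and Macs (30.6 CPM), with no overlap between neighbours. By library size, ECs and PT cells overlapped at UUO-2. At UUO-7 PT cells came first (1267 CPM), overlapping with ECs (825 CPM), and PDGFR-β+ cells (309.6 CPM) and Macs (51.1 CPM) followed without overlap. By library size, PT cells and ECs did not overlap at UUO-7. In R-UUO the PT cells (1027 CPM), PDGFR-β+ cells (905 CPM) and ECs (719 CPM) overlapped with their neighbours, and Macs (122 CPM) were lowest, overlapping with ECs by library size.

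On the log2 scale the change in ECs minus that in PT cells was -3.43 (SE 0.46) at UUO-2 in the fit of all 63 libraries. It was -5.26 (SE 0.48) at UUO-7, and after reversal -5.16 (SE 0.48). The comparisons share their sham libraries. The fit held no term for the mouse, so these SEs leave out the pairing of cell types within a mouse. At UUO-7 the median of this difference over 671 loci was -0.31, and 22 loci had a more negative one. Of 312 loci tested in both cell types, 5 (1.60%) were lower without overlap in ECs and higher without overlap in PT cells at UUO-7. Besides miR-204-5p these were miR-133a-3p, miR-23a-3p, miR-23b-3p and miR-27b-5p, named because their number is small. miR-133a-3p, a muscle miRNA, was nearest in size, at -1.73 (SE 0.37) in ECs and 1.55 (SE 0.49) in PT cells.

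The 3p arm could be followed in ECs alone, where it passed the filter. The sham libraries had 23, 19, 8 and 10 counts, and the UUO-2 libraries 5, 6, 12 and 3 counts. At UUO-7 they had 1, 1, 1 and 2 counts, and in R-UUO 1, 5, 0 and 1. Scaled to CPM, the sham and UUO-2 means were 1.53 and 1.38, and those of UUO-7 and R-UUO were 0.183 and 0.175. The arm passed the filter through its sham and UUO-2 libraries, so that lower values in the other groups carry no weight of their own. In PT cells the 3p arm had 2 counts in sham and 2 at UUO-2. It had 4 after 7 days and 6 after reversal, too few to follow. Macs had 1 count in all and PDGFR-β+ cells 9.

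Sums of marker miRNAs, a population's own and those of others, differed between conditions too. Their association with miR-204-5p was not tested. The sum of the 7 tubular marker loci in PT libraries, by library size, was 161600.0 to 188625 CPM in sham and 71282 to 115006 CPM at UUO-2. After 7 days it was 36213 to 76102 CPM, and in R-UUO 11846 to 82646 CPM. In the same libraries the stromal marker sum was 2210.4 to 5353 CPM in sham and 6924 to 15917 CPM at UUO-7. An amount of miR-204-5p that the 3 other sorted populations could bring was worked out for each library. For each population, its marker sum in the library was divided by the marker sum in that population's own library of the same mouse. This fraction was multiplied by the miR-204-5p level of the population's own library, as if all reads of those markers had come from those cells. Cells outside the 4 sorted populations do not enter this amount, so it sets no limit on what they could bring. In PT cells the 3 other populations together would bring 11.6% to 23.5% of the measured miR-204-5p in sham and 1.31% to 2.45% at UUO-7. In sham ECs they would bring 0.730% to 2.95%, at UUO-7 12.6% to 13.4%, and in R-UUO 8.69% to 49.8%. For R-UUO EC replicate 1 the amount was 48.7% of the measured level, and 25.9% rested on the PT library that stood apart. In PDGFR-β+ cells the amount was 4.42% to 7.67% in sham and 24.9% to 29.4% at UUO-7. The UUO-7 values rest on the 3 mice with all 4 libraries. The amount is larger where the marker sum in a population's own library is lower or its miR-204-5p is higher. PT cells showed both at UUO-7. By library size the tubular sum in ECs was 2175 to 3036 CPM in sham and 1582 to 2172 CPM at UUO-7. In R-UUO it was 1179 to 1712 CPM. The stromal sum in ECs was 8048 to 16605 CPM in sham, 5433 to 10980 CPM at UUO-7 and 3613 to 28118 CPM in R-UUO.

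In ECs at UUO-7, 3 of 3 Mac marker loci rose, with a median log2 fold change of 2.22, and their sum went from 13.7 to 42.9 CPM in sham to 69.6 to 124 CPM by library size. None of the 2 endothelial, 5 stromal or 7 tubular loci tested in ECs was called. In UUO-7 PDGFR-β+ cells 3 of 3 Mac loci rose (median 2.26) and 2 of 2 endothelial loci fell (median -1.31). Of their own 7 stromal loci the 5 of miR-199a and miR-214 rose, and the 2 of miR-143-3p and miR-145a-5p, known from smooth muscle, fell. The stromal sum by library size was 259386 ± 12536 CPM in sham (SD, n = 4), 151816 ± 19939 CPM at UUO-7 (SD, n = 3) and 111722 ± 26285 CPM in R-UUO (SD, n = 4). At the proportions of their markers, Macs of the same mouse would bring 0.0336% to 0.0736% of the miR-204-5p measured in ECs at UUO-7. The part of the change in stromal markers in the miR-204-5p values of PDGFR-β+ cells was not tested.

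In Macs this amount was as large as the measured level. It was 50.6% to 127.9% of the measured level in sham and 103.1% to 211.7% at UUO-2. After 7 days it was 126% to 139.7%, and in R-UUO 71.3% to 209%. The 209% is that of R-UUO replicate 1, where the PT library that stood apart would alone bring 135.7%. The other R-UUO Mac libraries had 112.6%, 78.0% and 71.3%. The summed amount reached or passed the measured level in 11 of 15 Mac libraries and in 0 of 15 libraries of each other cell type. Per 1000 counts of tubular markers, Macs had 6.63 to 10.6 counts of miR-204-5p in sham and 19.4 to 35.0 at UUO-7, whereas PT cells had 0.676 to 1.32 in sham and 15.3 to 37.7 at UUO-7. A level of miR-204-5p made by Macs themselves and one brought by other cells cannot be told apart here. ECs had 468 to 1125 counts per 1000 tubular marker counts in sham and 229 to 400.5 at UUO-7, above the PT libraries in both conditions. The source of the miR-204-5p reads in ECs was not tested.

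**Figure D4:**
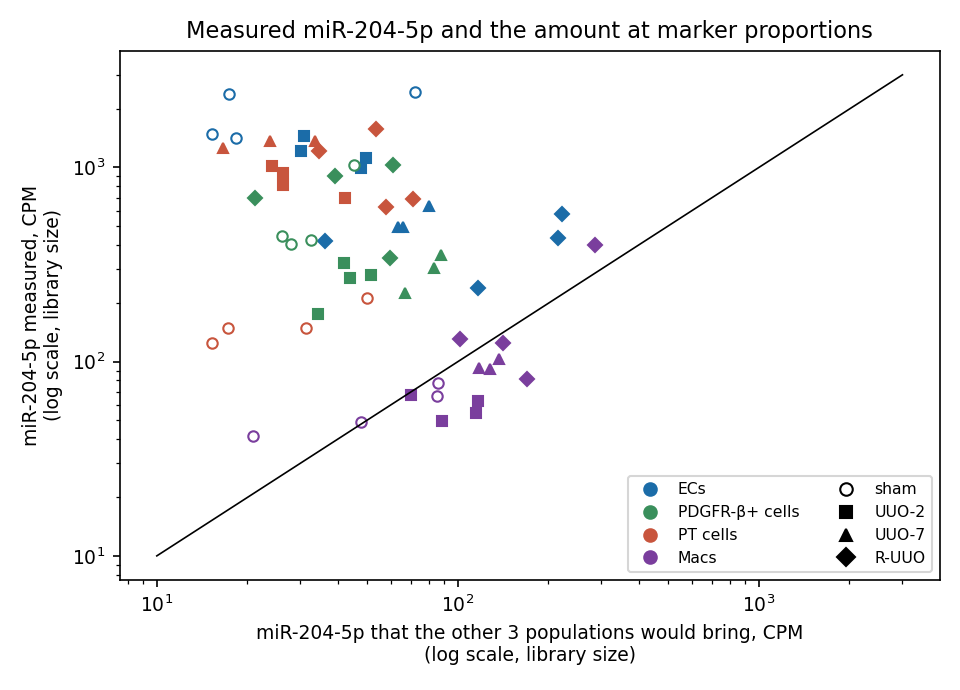
Measured miR-204-5p (vertical axis) against the amount that the other 3 populations of the same mouse would bring at the proportions of their markers (horizontal axis), both in CPM by library size on log scales, for the 60 libraries of mice with all 4 populations. The line marks equal values, and 11 of 15 Mac libraries lie on or below it, whereas all libraries of the other cell types lie above it.

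**Figure D5:**
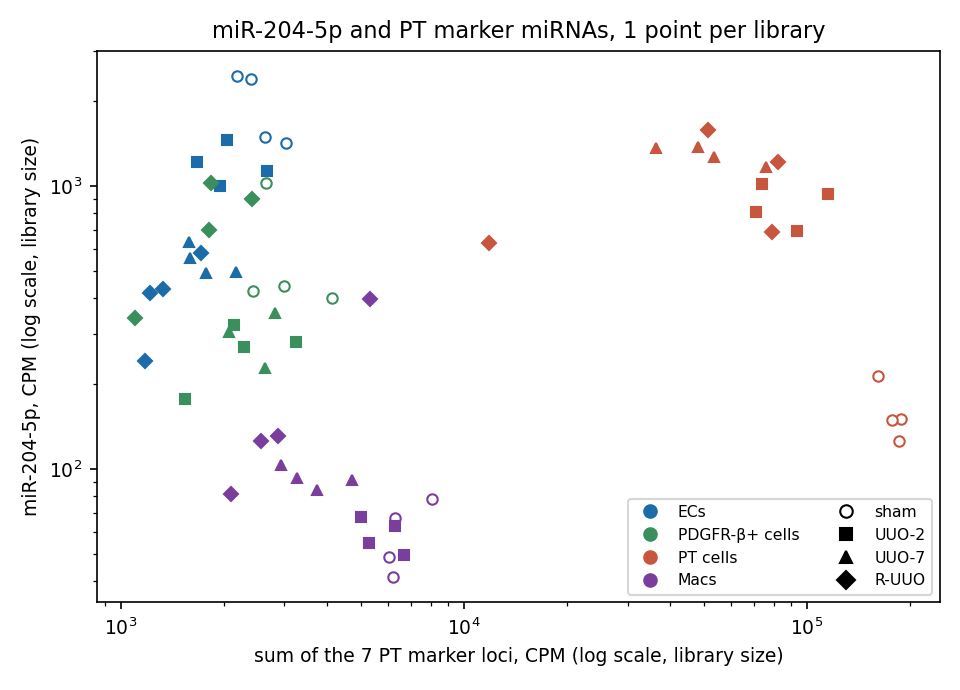
miR-204-5p against the sum of the 7 tubular marker loci in each of the 63 libraries, both in CPM by library size on log scales, with cell types in colour and conditions by symbol. PT libraries move from high markers and low miR-204-5p in sham (161600.0 to 188625 CPM of markers) to lower markers and higher miR-204-5p after obstruction, and ECs reach like miR-204-5p levels with marker sums of 1179 to 3036 CPM.

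Other miRNAs long described in kidney tubules did not share one direction in PT cells. Of a list of 17 names at 19 loci, which holds the 7 tubular marker loci too, 18 loci were tested in PT cells at UUO-7 (false discovery rate of 0.05 and fold change of 1.5), where 3 rose, 7 fell and 8 were not called, with a median log2 fold change of 0.08 against 0.00 for all loci. Of all loci 25.5% were called higher and 17.6% lower. miR-141-3p rose by a log2 of 3.40 (SE 0.53, adjusted p = 0.00015) and miR-200c-3p by 3.02 (SE 0.43, adjusted p = 7.8e-05) in edgeR's quasi-likelihood test. Both come from the miR-200 family, which holds back the mesenchymal factors Zeb1 and Zeb2, and their changes were close in size to that of miR-204-5p. The other members of the family on the list were not called, with log2 fold changes of 0.54 (SE 0.11) for miR-200b-3p, 0.46 (SE 0.20) for miR-200a-3p and 0.29 (SE 0.15) for miR-429-3p. miR-192-5p, the most abundant tubular marker, fell by 1.62 (SE 0.32, adjusted p = 0.00073, edgeR).

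In the cell types in which miR-204-5p was lower, the tubular list was either little changed or lower. In ECs 1 of 19 loci, that of miR-30c-5p on chromosome 1, was called lower at UUO-7 and 0 higher, where 5.33% of all loci were called lower and 6.18% higher. This call was lost without any 1 of the 8 libraries compared and with no filter, and with library size alone 5 loci were called lower. The median of the list was -0.27, against -0.05 for all loci. In PDGFR-β+ cells 6 of 18 loci fell and 0 rose, where 14.3% of all loci were called lower and 34.0% higher, and with library size alone 0 were called lower. In Macs 10 of 18 loci fell and 1 rose, where 16.8% of all loci were called lower and 26.3% higher, while miR-204-5p itself was not lower there.

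By the pattern of its level over the 16 groups, the loci most like miR-204-5p were miR-10a-3p (Pearson r = 0.96), miR-672-5p (r = 0.93) and miR-10a-5p (r = 0.93), among 314 loci of at least 10 CPM with a median r of 0.14. These points share their libraries and scaling, and the values are a description. None of the 3 was lower in ECs at UUO-7 by as much as miR-204-5p, whose difference of group means was -1.73 on the log2 scale, against -0.06, 0.54 and 0.21. In PT cells their differences were 1.54, 3.03 and 1.92, against 3.49 for miR-204-5p. After the mean of each cell type was taken away, miR-195a-3p (r = 0.87), miR-672-5p (r = 0.81) and miR-181c-5p (r = 0.81) were nearest. miR-195a-3p and miR-181c-5p were lower in ECs at UUO-7 by 0.34 and 0.32 and higher in PT cells by 1.95 and 2.45 on the log2 scale of group means.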

How the data were processed

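The files hold small RNA sequencing of sorted mouse kidney cells. The authors removed adapters from paired-end reads (Trim Galore 0.4.1, cutadapt 1.1, per the submitters' processing notes), used ShortStack with Bowtie on GRCm38 and miRBase 22, and deposited raw read counts per mature miRNA locus, with no normalization or pooling. No molecular identifiers are named, so intervals cover counting error only. A sum column over all libraries was not used.

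Each library's condition, cell type and replicate number came from its label. A replicate number was read as 1 mouse within a condition, so that the 4 cell types of 1 number were taken to come from 1 mouse. The labels do not state this. Over 93 such pairs of libraries the deviations from the group means correlated at -0.29 to 0.27, with a median of 0.049 and 31 pairs over 0.1. Over 74 pairs of the same number in different conditions of a cell type the median was -0.017, with 8 pairs over 0.1. The same number in another condition was read as another mouse.

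The deposited counts were fitted with edgeR 4.0.16 under R 4.3.3 (filterByExpr, TMM, glmQLFit, glmQLFTest), with log2 CPM at a prior count of 2. Levels and differences of changes between cell types were fitted over all 63 libraries in 16 groups, with no term for the mouse. They are given with no p, and other loci were tested within 1 cell type. DESeq2 1.42.0, library size alone, no filter, a replicate block, only the compared groups, a common scaling and leaving out each replicate were the alternatives. The fits were also run on counts simulated from the spread that edgeR had itself fitted. Such a run cannot show how they fare where real counts depart from that model. Library totals ranged from 616565 to 10819385. The members, marker and tubular lists were chosen with earlier results of these data known. Named loci are both arms of miR-204 and miR-211, list members and the 3 loci most like miR-204-5p by each measure (the 3p arm was too sparse for this), with the exception stated in the text.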

Additional observations from a re-analysis of the deposited data

Results flagged for a closer look

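A pair of libraries lay far from the others of their group, as judged by the gap to the nearest library over the whole range. In Macs, R-UUO replicate 5 had 419.8 CPM of miR-204-5p against 91.7 to 148 CPM in the other 3, and it was also the shallowest Mac library, with 1106651 counts. In ECs, UUO-7 replicate 4 had 649.6 CPM against 512 to 521 CPM. Among the 15 groups of 4 libraries examined, chance flags about 1 in 20.

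In 7 comparisons the compared conditions did not overlap in either of a pair of cell types, and the changes of the pair had opposite signs. These differences were not tested, since the miRNA was chosen for them. On the log2 scale, the changes of ECs minus those of PT cells differed by -5.26 at UUO-7 and -5.16 in R-UUO against sham, and by -1.83 between UUO-2 and UUO-7. PT cells minus PDGFR-β+ cells gave 3.87 at UUO-2 and 4.93 at UUO-7 against sham. ECs minus Macs gave -3.57 in R-UUO against sham and -1.75 between UUO-2 and UUO-7. The Mac change in R-UUO was 0.94 without replicate 5, and that from UUO-2 to UUO-7 was 0.45 with the replicate block. In 11 of 15 Mac libraries the amount that other populations would bring reached or passed the measured level.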

How the results depend on the processing

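With library size alone, the level against the other 3 cell types was 1.56 in place of 2.35 in ECs and -2.82 in place of -3.81 in Macs. It was 1.04 in place of 0.78 in PT cells and 0.22 in place of 0.68 in PDGFR-β+ cells. With the same scaling the change in PT cells was 3.02 at UUO-7 and 2.69 in R-UUO against sham. The difference between ECs and PT cells was -3.13 at UUO-2 and -4.85 at UUO-7, and the change of PDGFR-β+ cells from UUO-2 to UUO-7 turned from -0.36 to 0.17. The change of PDGFR-β+ cells between sham and R-UUO (0.08) turned to -0.11 with DESeq2 and -0.011 with only these groups in the fit, and ran from -0.12 to 0.48 with each replicate left out. In particular, it was -0.01, -0.12 and -0.02 without sham replicates 2, 3 and 4, and -0.02 and -0.11 without R-UUO replicates 2 and 5. Leaving out 1 replicate gave Mac changes of -0.50 to -0.14 at UUO-2, 0.19 to 0.55 at UUO-7 and 0.94 to 1.78 in R-UUO against sham, with the value nearest to or furthest from 0 without sham replicate 2 (UUO-2, UUO-7) or R-UUO replicate 5. With the replicate block, which turned the sign of no change of miR-204-5p, the Mac change from UUO-2 to UUO-7 was 0.45, 2 tubular loci were called lower in ECs and 5 higher in PT cells. Tubular loci called lower in ECs numbered 5 with library size alone, 2 with DESeq2, 0 with no filter, and 0 without any 1 of 8 replicates. In PDGFR-β+ cells 0 were called lower with library size alone and 11 with DESeq2, and in PT cells 5 higher with no filter. miR-10a-3p had a Spearman rho of 0.88. The causes were not tested. All other changes of miR-204-5p kept their sign in every alternative run: in ECs the UUO-7 change was -1.83 to -1.40 and in PT cells 3.02 to 3.51. The alternatives for the difference between ECs and PT cells were chosen after seeing the data. With no filter miR-211-5p entered 15 tests and was called in 0 (lowest adjusted p 0.181, edgeR). PT libraries were the shallowest, which limits the 3p arm and miR-211 most.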
